A study of Mus musculus with 12 samples.

Results

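The ductal sodium and chloride channels of the mouse submandibular gland were compared between C57BL6J mice of 50 weeks and of 8 weeks. The genes are Scnn1a, Scnn1b, Scnn1g, Cftr, Nedd4l, Clcn2 and Slc9a3, 7 in number, and they were taken as every probe whose single gene symbol in the array annotation is one of these names. That gave 11 of the 45281 probes. Total RNA of the whole gland was labelled as biotinylated cRNA and hybridised to 12 Illumina bead arrays, 6 at the age of 50 weeks and 6 at that of 8 weeks, with no treatment and no other genotype named. The labels number the mice within each age but do not say that each array is 1 animal or whether tissue was pooled, so p-values measure the spread between these arrays, which may be technical in part. Neither the sex of the mice nor the hour at which glands were taken is stated in the labels. The Y-linked gene Eif2s3y was detected on 6 of 6 arrays of each age.

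Acinar cells of a salivary gland secrete a primary fluid rich in sodium chloride, and the striated and excretory ducts then take up sodium and chloride while passing little water, so that the final saliva is hypotonic. Sodium enters duct cells through the epithelial sodium channel ENaC, built from an alpha (Scnn1a), a beta (Scnn1b) and a gamma (Scnn1g) subunit, and chloride follows largely through Cftr, a chloride and bicarbonate channel opened by cyclic AMP. Nedd4l is a ubiquitin ligase that binds the tails of ENaC subunits and removes the channel from the surface, Clcn2 is a voltage-gated chloride channel, and Slc9a3 is the apical sodium/hydrogen exchanger NHE3.

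Scnn1b and Scnn1g were lower at 50 weeks, Cftr was higher, and the other 4 genes did not pass the test. Thus 3 of the 7 genes passed, 1 higher and 2 lower, where 12.5% of all 9379 genes tested did (6.35% higher and 6.13% lower). Counts of 7 genes are too small for a share to be read against that background. The median log2 change was -0.22 over the 7 genes and -0.02 over all genes tested.

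Scnn1b and Scnn1g, which fell, lie next to each other in the mouse annotation, with 0 annotated genes between them, and Cftr, which rose, lies on another chromosome. The sequences upstream of the annotated starts of these 3 genes are shown, from RefSeq on GRCm38.p6, 5′ to 3′ on the + strand, in order to set the sequence of the subunit genes that fell beside that of the gene that rose. The windows are chr7:121864788-121865037 for Scnn1b, chr7:121734229-121734419 for Scnn1g and chr6:18170437-18170686 for Cftr, that of Scnn1g being shortened to the bases outside the annotated gene, and capitals mark the GC box CCGCCC on either strand.
Scnn1b: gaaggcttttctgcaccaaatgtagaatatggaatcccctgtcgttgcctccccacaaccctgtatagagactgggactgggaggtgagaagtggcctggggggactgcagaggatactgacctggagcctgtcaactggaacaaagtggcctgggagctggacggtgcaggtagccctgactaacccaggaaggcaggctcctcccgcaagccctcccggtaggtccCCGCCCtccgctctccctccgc
Scnn1g: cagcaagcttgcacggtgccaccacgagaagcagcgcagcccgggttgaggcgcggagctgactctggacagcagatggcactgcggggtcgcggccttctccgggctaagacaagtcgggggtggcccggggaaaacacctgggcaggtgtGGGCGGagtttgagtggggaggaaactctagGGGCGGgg
Cftr: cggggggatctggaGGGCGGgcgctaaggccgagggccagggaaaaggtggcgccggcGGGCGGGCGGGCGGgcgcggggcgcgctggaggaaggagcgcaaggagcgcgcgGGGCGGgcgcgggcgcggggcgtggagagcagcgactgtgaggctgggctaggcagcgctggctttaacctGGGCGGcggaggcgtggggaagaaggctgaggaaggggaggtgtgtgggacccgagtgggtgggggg
The GC box occurred 1 time in the Scnn1b window, 2 times in that of Scnn1g and 6 times, 3 of them overlapping by their ends, in that of Cftr, and G and C made up 60.8%, 67.0% and 76.4% of the bases. A promoter entry was at hand for 5 of the 7 genes, those of Scnn1b, Scnn1g, Cftr, Clcn2 and Slc9a3. The search covered the 250 bases before the start given by each promoter entry, which for Scnn1g include bases inside the annotated gene. There the GC box was found in all 5, against 32.7% of 32851 mouse promoters. The hexamer AGAACA, part of the glucocorticoid response element and searched on both strands, was in 0 of the 5 against 16.1% of promoters. The E-box CACGTG, also on both strands, was in that of Slc9a3 alone among the 5, where it overlapped no GC box, against 6.02% of promoters. A match is a description of the letters and not a binding site.

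Mean probe intensity ran from 223 to 302 on the 50-week arrays and from 207 to 324 on the 8-week arrays, and 15318 to 18110 and 15321 to 16433 probes were detected. Array 6 of 50 weeks had a mean correlation of 0.949 with the other arrays of 50 weeks, whereas the same value for the rest lay between 0.975 (8 weeks array 2) and 0.983, and results are given without both of these arrays as well. As a check of the tissue, all 10 granular duct products and all 10 acinar markers on the array passed the detection filter. Detection does not show that the dissected tissue was alike between arrays. Of the 10 acinar markers 1 was higher at 50 weeks, Bhlha15 (0.41, limma adjusted p = 0.0309), and 0 were lower. Of 5 measured markers of the sublingual gland 0 passed and 4 had positive differences. The largest was that of Lyz1 (0.69, limma adjusted p = 0.0558). The acinar marker Amy1 ranged from 7.73 to 13.80 in log2 intensity at 50 weeks and from 8.14 to 14.10 at 8 weeks. Bpifa2 ranged from 13.11 to 14.92 and from 12.52 to 15.23, and the other acinar markers had SDs of at most 0.33 within an age. The adipocyte marker Adipoq ranged from 5.00 to 7.41 at 50 weeks and from 5.18 to 10.56 at 8 weeks. The cause of these ranges was not tested. At 50 weeks 596 of all genes were higher and 575 lower. Under a common median for all arrays instead of quantile normalisation, 320 genes were higher and 73 lower, and the median gene differed by 0.10.

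All 7 genes were measured. Each had 1 probe with a detection p of 0 on all 12 arrays, and that probe stands for its gene. The other 4 probes, 1 for Cftr, 2 for Nedd4l and 1 for Slc9a3, were detected on 0 of 12 arrays, with detection p from 0.0502 to 0.703, and carry no measured level. Fitted over all 45281 probes with no filter, 3.03% of probes passed, Scnn1b (limma adjusted p = 0.024) and Scnn1g (0.0416) among them but not Cftr (0.0914). Values below are log2 intensities after background correction and quantile normalisation. They can be compared between arrays for 1 probe but not between probes, so the 7 genes are not ranked by level. The lowest value among them, 6.83, lay above the log2 intensity of the dimmest detected probe on every array, which ran from 4.84 to 5.08.

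Among the ENaC subunits, Scnn1b (probe ILMN_2618383), the beta subunit, had log2 intensities of 10.88 at the lowest, 10.96 at the median and 11.06 at the highest array of 50 weeks, against 11.08, 11.36 and 11.62 at 8 weeks. Every 50-week array lay below every 8-week array, narrowly at the nearest arrays (11.06 and 11.08), and the 50-week arrays were closely spaced. On the authors' scaled values the ages overlapped, with 2304 on 50 weeks array 1 and 2207 on 8 weeks array 4. Scnn1b averaged 10.96 ± 0.07 at 50 weeks and 11.35 ± 0.20 at 8 weeks (SD, n = 6 each). It fell by 0.39 ± 0.09 on the log2 scale (SE; 95% interval -0.59 to -0.19; limma adjusted p = 0.0151), which is a level 0.763 times that of 8 weeks. In the quantile-normalised values it was the 1 gene of the 7 whose groups did not overlap, as 6.45% of all genes did not.

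Scnn1g (probe ILMN_2759914), the gamma subunit, had 8.11, 8.36 and 8.75 at the lowest, median and highest array of 50 weeks, against 8.63, 8.86 and 9.06 at 8 weeks. Below all 8-week arrays lay 5 of the 6 arrays of 50 weeks, and the exception was array 6. The means were 8.37 ± 0.22 at 50 weeks and 8.84 ± 0.20 at 8 weeks (SD, n = 6 each). Scnn1g fell by 0.47 ± 0.12 (SE; 95% interval -0.72 to -0.22; limma adjusted p = 0.0185), to 0.721 times the 8-week level.

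Scnn1a (probe ILMN_2729607), the alpha subunit on which channel assembly depends, had 8.59, 9.11 and 9.23 at the lowest, median and highest array of 50 weeks, against 9.00, 9.12 and 9.57 at 8 weeks. The medians nearly coincided, the groups overlapped, and the lowest value belonged to 50 weeks array 6. The difference was -0.18 ± 0.13 (SE; 95% interval -0.45 to 0.10; limma adjusted p = 0.403) and did not pass. The interval still includes falls of the size measured for Scnn1b. Without 50 weeks array 6 the difference was -0.09.

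The calls of both subunits held without 50 weeks array 6 and 8 weeks array 2, where Scnn1b changed by -0.44 (limma adjusted p = 0.00548) and Scnn1g by -0.52 (0.00397), and without any 1 of the 12 arrays. With arrays scaled to the same median they did not pass: Scnn1b changed by -0.26 (limma adjusted p = 0.428) and Scnn1g by -0.36 (0.231), or by -0.36 and -0.46 relative to the median of all genes in that scaling. Bulk RNA cannot tell fewer cells of a type from less RNA per cell. Of 11 measured markers of duct epithelium 0 were higher and 1 was lower, Ascl3, a transcription factor of a rare duct cell type, which fell by 0.85 ± 0.14 (SE; limma adjusted p = 0.00188). The 11 had a median change of -0.13, and their summed linear intensity ran from 16287 to 20026 at 50 weeks and from 17379 to 21338 at 8 weeks. Of 10 products of the granular duct 1 fell, the kallikrein gene Klk1, by 0.73 ± 0.09 (SE; limma adjusted p = 0.000177) with no overlap of the ages, and 9 did not pass; the 10 summed to 268526 to 283439 at 50 weeks and 278566 to 301890 at 8 weeks. These 10 products were very bright, with mean log2 intensities from 13.86 to 15.20, where differences may be compressed. Those that did not pass are thus not read as unchanged. The duct epithelium markers Krt19, Ehf and Gata3 were under the detection filter. Krt5, Krt14 and Trp63, which also mark basal duct cells, were placed in the list of myoepithelium and smooth muscle. They were higher at 50 weeks, by 0.90, 0.52 and 0.55 (limma adjusted p = 0.00847, 0.000987 and 0.0086). The part of duct cell number in the subunit values was not tested.

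**Figure D1:**
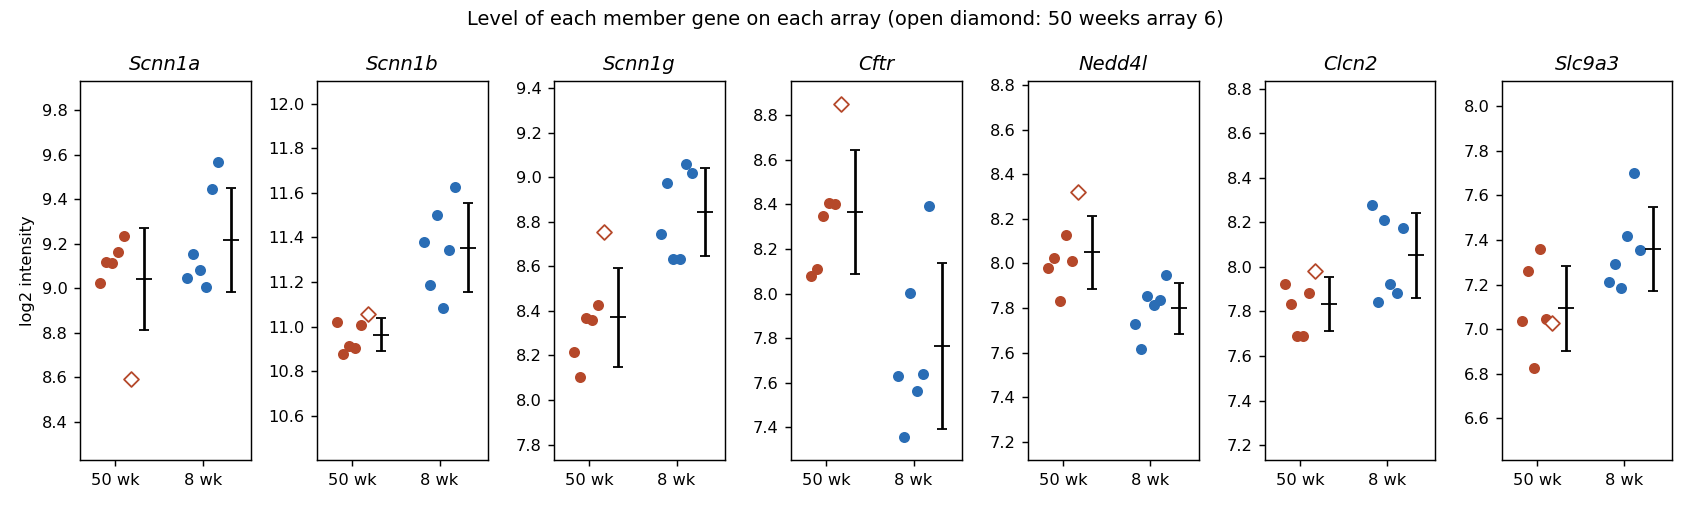
Log2 intensity (vertical axis, the same span of 1.7 units in each panel) of the 7 genes on the 6 arrays of 50 weeks (red, left) and the 6 of 8 weeks (blue, right), with mean ± SD in black. In these normalised values Scnn1b does not overlap between ages, by a narrow margin. Array 6 of 50 weeks (open diamond) is the highest of its age for Scnn1b, Scnn1g, Cftr, Nedd4l and Clcn2 and the lowest for Scnn1a.

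Of the chloride channels, Cftr (probe ILMN_1259577) had 8.08, 8.38 and 8.85 at the lowest, median and highest array of 50 weeks, against 7.36, 7.64 and 8.39 at 8 weeks. Above every 8-week array lay 3 of the 6 arrays of 50 weeks, since 8 weeks array 6 stood at 8.39 while the other 8-week arrays reached 8.00 at most. Cftr averaged 8.37 ± 0.28 at 50 weeks and 7.76 ± 0.37 at 8 weeks (SD, n = 6 each). It rose by 0.60 ± 0.17 (SE; 95% interval 0.24 to 0.97; limma adjusted p = 0.0332), a 1.52-fold difference. This call was near its threshold. It ended without 8 weeks array 1, 2, 4 or 5 and without 50 weeks array 3, 4 or 5 (limma adjusted p up to 0.0718, changes from 0.52 to 0.61), and when 50 weeks array 6 and 8 weeks array 2 were both left out (0.42, limma adjusted p = 0.0539). It held with arrays scaled to the same median (0.73, limma adjusted p = 0.0222).

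Clcn2 (probe ILMN_1256594) had 7.69, 7.86 and 7.98 at the lowest, median and highest array of 50 weeks, against 7.84, 8.05 and 8.28 at 8 weeks. Of the 50-week arrays 3 lay below all 8-week arrays and 3 within their range. The difference was -0.22 ± 0.10 (SE; 95% interval -0.43 to -0.01; limma adjusted p = 0.16), which did not pass over all genes. It passed without both 50 weeks array 6 and 8 weeks array 2 (-0.29, limma adjusted p = 0.0375).

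Slc9a3 (probe ILMN_1245464), which exchanges luminal sodium for protons, had 6.83, 7.04 and 7.36 at the lowest, median and highest array of 50 weeks, against 7.19, 7.32 and 7.70 at 8 weeks. Of the 50-week arrays 4 lay below all those of 8 weeks. The difference was -0.27 ± 0.11 (SE; 95% interval -0.50 to -0.03; limma adjusted p = 0.125) and did not pass. On the authors' scaled values it was -0.13 (limma adjusted p = 0.265).

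Nedd4l (probe ILMN_2878501), the ligase that limits ENaC at the surface, had 7.83, 8.02 and 8.32 at the lowest, median and highest array of 50 weeks, against 7.62, 7.83 and 7.95 at 8 weeks. Above every 8-week array lay 5 of the 6 arrays of 50 weeks. The difference was 0.25 ± 0.09 (SE; 95% interval 0.06 to 0.44; limma adjusted p = 0.0854), opposite in sign to those of the ENaC subunits, and did not pass. It passed on the authors' scaled values (0.20, limma adjusted p = 0.0307). None of the 7 genes changed sign under any of the 21 alternative settings, over which the differences ran from -0.22 to -0.07 for Scnn1a, from 0.16 to 0.38 for Nedd4l, from -0.29 to -0.10 for Clcn2 and from -0.32 to -0.13 for Slc9a3. The settings that altered only the filter, the probe rule or the block returned the main difference by construction. Fits without single arrays share most of their arrays with the main fit.

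**Figure D2:**
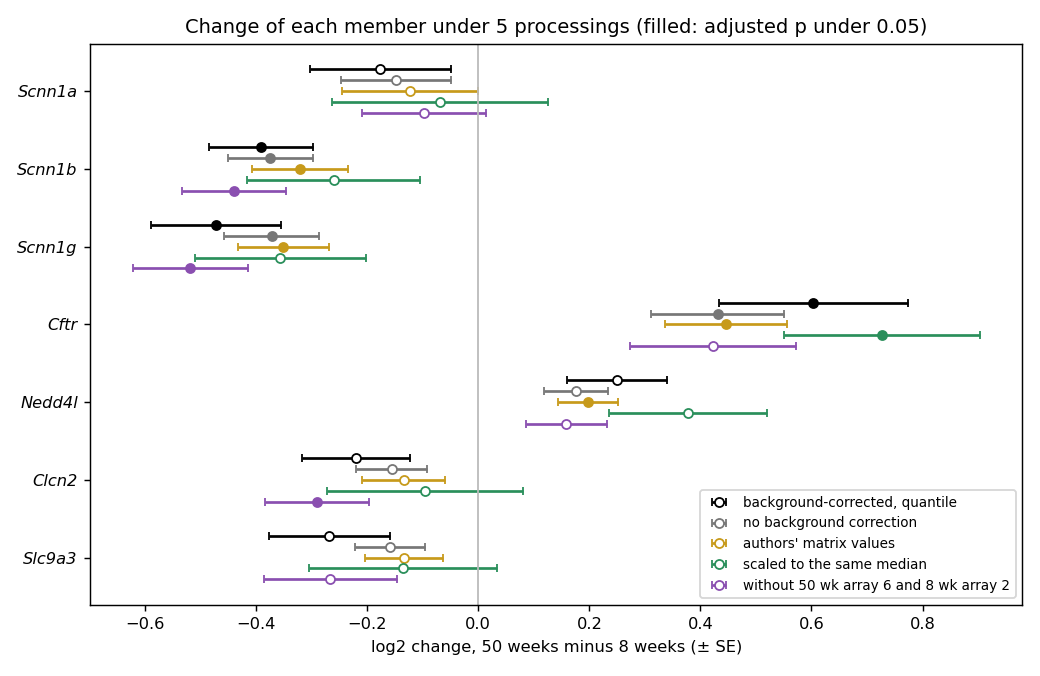
Log2 change of each gene, 50 weeks minus 8 weeks, with its SE (horizontal axis), under 5 processings in colour, filled where the adjusted p is under 0.05. Scnn1b and Scnn1g are to the left of 0 and Cftr and Nedd4l to the right in every processing, and the subunit calls end with arrays scaled to the same median.

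Whether pairs of these genes changed unequally was examined by the log2 ratio of the 2 probes within each array, on which a shift common to a whole array has no effect. The level of such a ratio depends on the probes, and only its difference between ages is read. All 21 pairs were tested after the values of single genes had been seen, by a 2-sided exact permutation test over the arrays, with a smallest possible p of 0.00216 and Benjamini-Hochberg adjustment over the 21. By this test 10 pairs passed. Each set Cftr or Nedd4l, the 2 genes with positive differences, against 1 of the 5 with negative differences. The 10 share probes and restate that split of signs, so they are not separate results. How many pairs among all genes would pass was not computed.

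The ratio of Scnn1g to Cftr was 0.00 ± 0.08 at 50 weeks and 1.08 ± 0.40 at 8 weeks (SD, n = 6 each), a difference of -1.08 (adjusted exact permutation p = 0.00649). It ran from -0.10 to 0.14 at 50 weeks and from 0.63 to 1.62 at 8 weeks, so that the ages did not overlap and the 50-week arrays were the closer together. Scnn1b to Cftr differed by -0.99, with 2.60 ± 0.25 at 50 weeks and 3.59 ± 0.22 at 8 weeks (SD, n = 6 each; adjusted exact permutation p = 0.00649). Scnn1a to Cftr differed by -0.78 (adjusted exact permutation p = 0.00649). All 3 subunits were lower relative to Cftr at 50 weeks, with no overlap of the ages in any of the 3 pairs. The rise of Cftr (0.60) is part of each difference, and for Scnn1a, which changed by -0.18, it is the larger part. The 3 pairs are thus not separate results on the subunits. The share of pairs without overlap among all genes was not computed.

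Relative to Nedd4l, Scnn1g differed by -0.72 and Scnn1b by -0.64 (adjusted exact permutation p = 0.00649 for each, no overlap), and Scnn1a by -0.43 (adjusted exact permutation p = 0.0227). Scnn1a to Nedd4l did not pass without 8 weeks array 2 or array 5 (adjusted exact permutation p = 0.0545 for each) or without 8 weeks array 2 and 50 weeks array 6 together (-0.26, 0.0694). The other 4 pairs that passed set Cftr or Nedd4l against Clcn2 or Slc9a3. These were Cftr to Clcn2 (0.82), Cftr to Slc9a3 (0.87), Nedd4l to Clcn2 (0.47) and Nedd4l to Slc9a3 (0.52).

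Pairs among the 3 subunits did not pass. Scnn1a to Scnn1b differed by 0.21 (adjusted exact permutation p = 0.206), Scnn1a to Scnn1g by 0.30 (0.196) and Scnn1b to Scnn1g by 0.08 (0.596). That Scnn1a passed no test by itself while the other subunits did therefore does not show that it changed differently from them. For Cftr to Nedd4l the difference of 0.35 missed the threshold (adjusted exact permutation p = 0.062). The 10 pairs passed without background correction, on the authors' scaled values and with arrays scaled to the same median. A common median shifts a whole array by 1 constant, which cancels in such a ratio. That setting thus shows the ratios without quantile normalisation and is no test of the scaling.

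**Figure D3:**
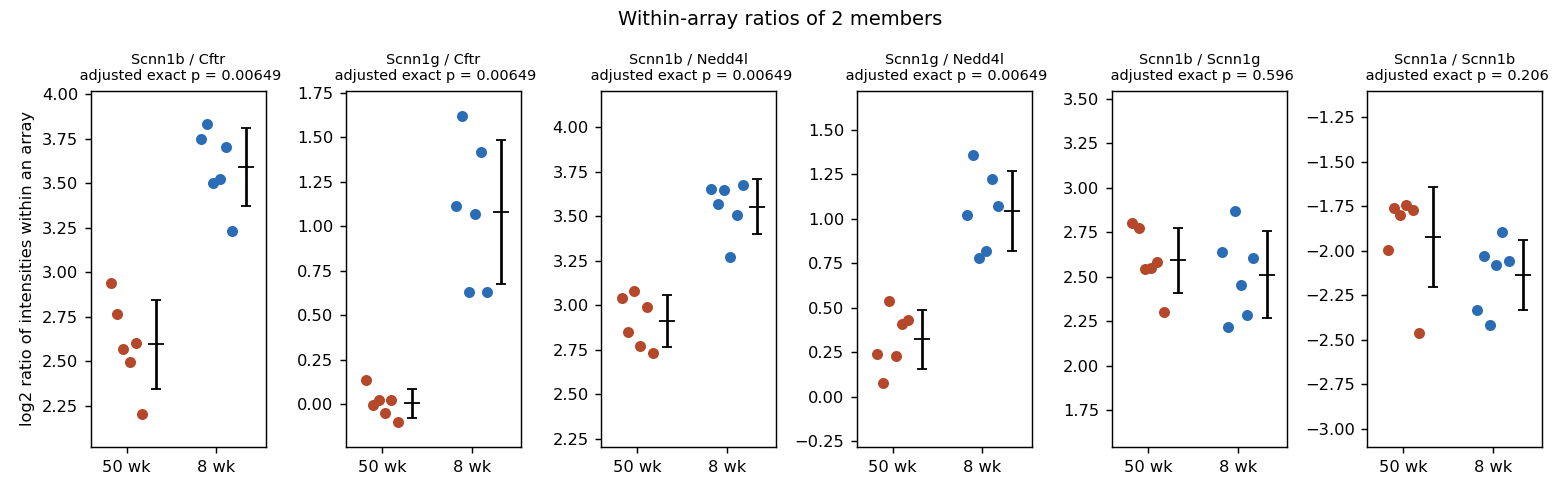
Log2 ratio of 2 genes within each array (vertical axis, the same span of 2 units in each panel) for the 6 arrays of 50 weeks (red, left) and the 6 of 8 weeks (blue, right), with mean ± SD in black and the adjusted exact permutation p over 21 pairs. The ratios of Scnn1b and Scnn1g to Cftr and to Nedd4l do not overlap between ages, and those between subunits do.

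Array to array, within an age, the 7 genes showed no relation that passed the adjustment over 21 pairs. After removal of the mean of each age, Scnn1b and Cftr had r = 0.77 over 12 arrays (permutation p = 0.00668, adjusted 0.0701) and Spearman's rho = 0.67 (permutation p = 0.0295, adjusted 0.207), with r = 0.69 without the 2 arrays farthest from the median of Scnn1b. Cftr and Nedd4l had r = 0.75 (permutation p = 0.00552, adjusted 0.0701) and rho = 0.72 (permutation p = 0.0143, adjusted 0.207), and r = 0.45 without the 2 arrays farthest from the median of Cftr. Scnn1b and Scnn1g, the neighbouring subunit genes, had r = 0.32 (permutation p = 0.319, adjusted 0.558) and rho = 0.27 (permutation p = 0.413, adjusted 0.642), and r = -0.03 without the 2 farthest arrays.

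The genes most like each of the 7 over the 12 arrays, by Pearson's r after the same removal of age means, are given as a description. They are the highest among the 9379 genes once clone and predicted gene names are left out. For Scnn1b they were Pik3r1 (0.930), a regulatory subunit of phosphoinositide 3-kinase, Timp3 (0.919), a metalloproteinase inhibitor, and Ntrk3 (0.898), a neurotrophin receptor. For Scnn1g they were Txndc11 (0.957), Trmt61a (0.925) and the chemokine gene Ccl25 (0.921). For Scnn1a they were the transcription factor gene Nfic (0.941), Rab11fip3 (0.941), an effector of recycling endosomes, and Pde4d (0.940), a phosphodiesterase of cyclic AMP. For Cftr they were Ngfr (0.962), Ank3 (0.952), the membrane adaptor ankyrin-G, and Mtch1 (0.949). Nedd4l was most like Ssh1 (0.921), Pam (0.921) and Pwwp2b (0.912), Clcn2 most like Capg (0.946), Ptp4a2 (0.904) and Tmem117 (0.894), and Slc9a3 most like Gstt2 (0.847), Pinx1 (0.832) and Agpat5 (0.825). Since age means were removed, r says nothing of the change with age. Among the genes named for Scnn1b and Scnn1g, Txndc11 (0.45, limma adjusted p = 0.0191) and Timp3 (0.60, 0.0445) were higher at 50 weeks. Pik3r1 was lower (-0.33, limma adjusted p = 0.0173), and Ntrk3, Trmt61a and Ccl25 did not pass. The 50-week array with a mean correlation of 0.949 with its age entered every r.

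Other genes of the same transport pathway were set beside these in 6 lists. Of 96 listed genes 53 were measured, and 7 passed, 2 higher and 5 lower, which is 13.2% against 12.5% of all genes tested. Slc9a9, 1 of the 7, was detected mainly at 50 weeks, and without it 6 of 52 passed (11.5%), 1 higher and 5 lower. The lists as a whole were thus close to the background, and single genes are given for their own values. The counts depended on 50 weeks array 6: without it 16 pathway genes passed, 5 higher and 11 lower, where 2317 of 9257 genes did.

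In the list of steroid receptors, kinases, ubiquitin ligases and other genes that act on ENaC, 16 of 21 were measured, 1 rose and 3 fell, with a median change of -0.09. Tsc22d3, the glucocorticoid-induced leucine zipper gene that raises ENaC activity in kidney cells, averaged 8.57 ± 0.19 at 50 weeks and 9.40 ± 0.24 at 8 weeks (SD, n = 6 each) on its brighter probe and fell there by 0.83 ± 0.12 (SE; limma adjusted p = 0.000664). Its other kept probe, detected on 5 of 6 arrays of 50 weeks and 3 of 6 of 8 weeks, differed by 0.02 ± 0.14 (SE), and the mean of both probes by -0.40 (limma adjusted p = 0.0157). Usp2, a deubiquitinase that opposes the action of Nedd4l on ENaC and follows the clock, averaged 7.70 ± 0.15 at 50 weeks and 8.43 ± 0.17 at 8 weeks (SD, n = 6 each) and fell by 0.73 ± 0.10 (SE; limma adjusted p = 0.000416). Per1, a clock gene known in kidney cells as a regulator of Scnn1a, averaged 6.62 ± 0.16 at 50 weeks and 7.31 ± 0.16 at 8 weeks (SD, n = 6 each) and fell by 0.69 ± 0.10 (SE; limma adjusted p = 0.000514). On the probes that stand for these 3 genes the ages did not overlap. With arrays scaled to the same median Usp2 differed by -0.61 ± 0.17 (SE; limma adjusted p = 0.052) and Per1 by -0.55 ± 0.19 (SE; 0.118), which did not pass. Per1 changed by -0.38 without background correction and by -0.35 on the authors' scaled values, and passed in both. The list had 5 genes lower without 50 weeks array 6.

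Wnk1, a kinase of the pathway that governs epithelial sodium and chloride transport, averaged 9.23 ± 0.07 at 50 weeks and 8.88 ± 0.17 at 8 weeks (SD, n = 6 each) and rose by 0.35 ± 0.08 (SE; limma adjusted p = 0.0164), with no overlap of the ages. With arrays scaled to the same median its difference was 0.45 ± 0.17 (SE; limma adjusted p = 0.143), larger but with a wider error, and did not pass. Sgk1, the steroid-induced kinase that inhibits Nedd4l, differed by -0.18 ± 0.12 (SE; 95% interval -0.43 to 0.07; limma adjusted p = 0.348) and did not pass. Nor did Nedd4, the near relative of Nedd4l, at 0.26 ± 0.09 (SE; limma adjusted p = 0.0706). The mineralocorticoid receptor Nr3c2 and the enzyme Hsd11b2, which shields it from glucocorticoid, were detected on 0 of 12 arrays, and the glucocorticoid receptor Nr3c1 on 2 of 6 arrays of 50 weeks and 1 of 6 of 8 weeks.

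In the fit of all arrays, none of the 6 measured proteases and protease inhibitors that act on ENaC passed (limma, 0 at an adjusted p under 0.05 and 1 at an unadjusted p under 0.05). Without 50 weeks array 6, 2 of the 6 were higher, and without 8 weeks array 2 as well, 2 were higher and 1 lower. The list differed by a median of -0.10, from -0.19 for the inhibitor Spint1 to 0.49 for its relative Spint2, the member with the smallest unadjusted p (0.00955; limma adjusted p = 0.065). The convertase Furin differed by -0.14, and Tmprss2 by -0.10. Prss8, the channel-activating protease prostasin, differed by -0.11 ± 0.12 (SE; limma adjusted p = 0.616). Of the 9 measured partners of Cftr and Slc9a3, 0 passed limma's test and 1 had an unadjusted p under 0.05, with changes from -0.17 to 0.19. Ahcyl1, which stimulates bicarbonate transporters, differed by -0.17 (unadjusted p = 0.0323; limma adjusted p = 0.139). The kinase subunit Prkaca differed by -0.11, and Prkaa1 and the scaffold Slc9a3r2, which binds Slc9a3, by 0.19 and -0.11.

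Of 9 genes of the sodium pump and potassium exit 1 fell, Atp1b1, the beta subunit of the sodium pump that drives uptake from the basal side. It averaged 12.83 ± 0.28 at 50 weeks and 13.26 ± 0.16 at 8 weeks (SD, n = 6 each), a change of -0.43 ± 0.13 (SE; limma adjusted p = 0.0397). Dropping any 1 of the 8-week arrays 2 to 6, or of the 50-week arrays 1, 2 and 5, ended the call (limma adjusted p up to 0.0828) and with arrays scaled to the same median (-0.34, 0.271). Leaving out 50 weeks array 6 gave 4 genes of this list as lower, and leaving out 8 weeks array 2 as well also gave 4. The potassium channel subunit Kcne1 differed by -0.60, the pump modulator Fxyd3 by -0.23 and the channel gene Kcnj16 by -0.29, and these did not pass (limma adjusted p = 0.0842, 0.0945 and 0.192).

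Of 11 other chloride channel genes 1 fell, Clcn3, a chloride/proton exchanger of intracellular membranes. On its brightest probe it averaged 9.32 ± 0.45 at 50 weeks and 9.94 ± 0.24 at 8 weeks (SD, n = 6 each), a change of -0.62 ± 0.19 (SE; limma adjusted p = 0.0432). Dropping any 1 of the 8-week arrays 1, 3, 4, 5 and 6, or of the 50-week arrays 1, 3 and 5, ended the call (limma adjusted p up to 0.0908), on the authors' scaled values (-0.52, 0.0932) and with arrays scaled to the same median (-0.52, 0.305). The other kept probes of Clcn3 differed by -0.74 ± 0.13, with no overlap of the ages, and by -0.59 ± 0.21 (SE). In the fit over all probes with no filter their limma adjusted p was 0.00942 and 0.192, against 0.118 for the brightest probe. Leaving out 50 weeks array 6 gave 2 genes of this list as lower and 1 as higher. Ano1, the calcium-activated chloride channel of acinar cells, differed by 0.30, Bsnd, the partner of kidney-type chloride channels, by -0.42 and Clcn4 by -0.37, and these did not pass (limma adjusted p = 0.0649, 0.0925 and 0.385).

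Of 11 other sodium/hydrogen exchangers and acid-sensing channels on the array, 2 were measured. Slc9a9, an exchanger of endosomes, was detected on 6 of 6 arrays of 50 weeks and 2 of 6 of 8 weeks, and averaged 5.50 ± 0.10 at 50 weeks and 5.00 ± 0.26 at 8 weeks (SD, n = 6 each). It passed the detection filter only through the 50-week arrays, and its 8-week values were mostly at background, so the size of its difference is not read. On the authors' scaled values it did not pass (0.11, limma adjusted p = 0.228). Slc9a2, an epithelial exchanger, differed by -0.13 (limma adjusted p = 0.63).

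**Figure D4:**
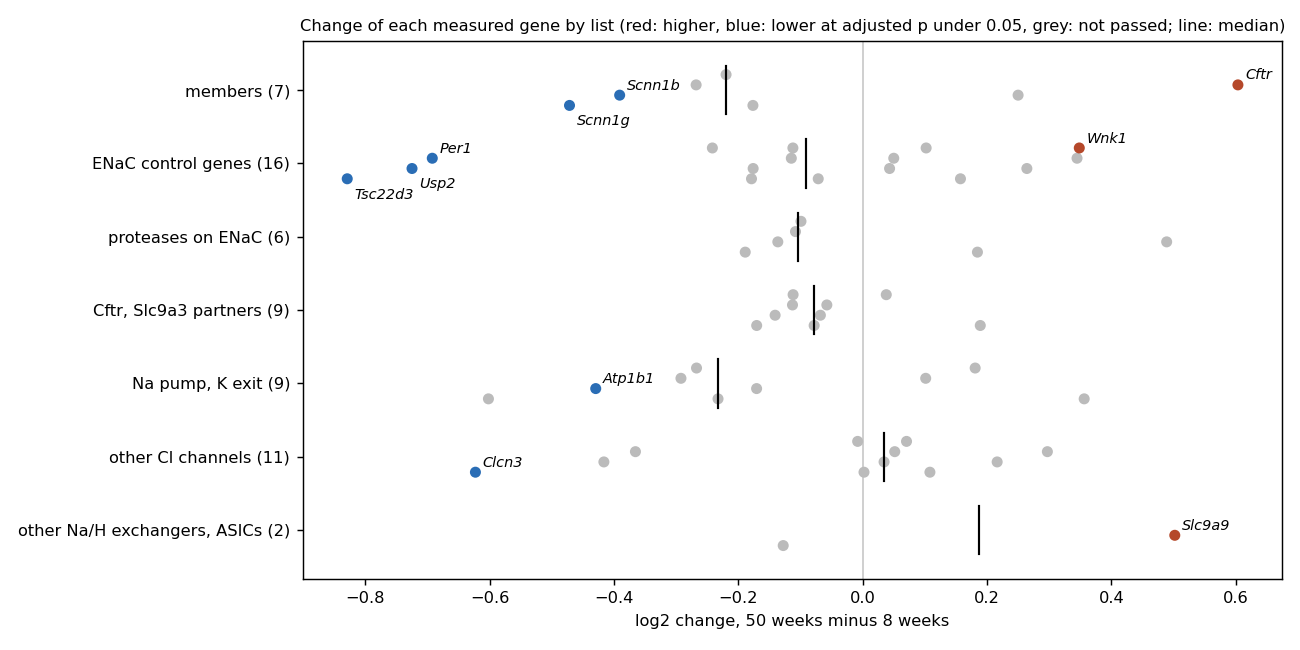
Log2 change, 50 weeks minus 8 weeks (horizontal axis), of every measured gene in the 7 genes and the 6 other lists (rows, with the number measured), red where higher and blue where lower at an adjusted p under 0.05, with the list median as a line. Most genes lie in grey, and those named are the 3 of the 7 and the 7 of the 53 that passed, Slc9a9 being detected on 2 of 6 arrays of 8 weeks.

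Transcripts of other cell types differed between the same arrays. Of 7 measured markers of B, plasma and T cells 5 (Mzb1, Cd3g, Cd3d, Cd79b and Ptprc) passed the detection filter mainly through the 50-week arrays. They were detected on 5 or 6 arrays of 50 weeks and on 1 or 2 of 8 weeks, and no count of calls is read from them. Both others, Nkg7 and Cd3e, were detected on 6 of 6 arrays of 50 weeks and 5 of 6 of 8 weeks and were higher at 50 weeks. No summed intensity of the 7 is read either, since those 5 are part of it and their 8-week values were mostly at background. Of 8 markers of macrophages and dendritic cells 7 were higher, summing from 2697 to 4163 at 50 weeks and from 1328 to 3133 at 8 weeks. Of 9 markers of myoepithelium and smooth muscle 7 were higher, summing from 16106 to 18395 at 50 weeks and from 11261 to 14142 at 8 weeks. Of 8 fibroblast markers 4 were lower and 1 higher, summing from 4787 to 6748 at 50 weeks and from 5893 to 8264 at 8 weeks. The B-cell marker Ms4a1 and the T-cell marker Cd8a were detected on at most 1 array. The part of these cells in the values of Cftr and the ENaC subunits was not tested.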

How the data were processed

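The deposited probe table gives linear intensities, and no scaling between arrays is stated. A detection p-value for each array stands beside its intensity, per the file headers. In a second deposited table, the series matrix, the authors multiplied the same intensities by 1 factor per array (0.803 to 1.26). The software behind the intensities is not given in the sources used here. Per the labels' protocols, RNA was extracted with Trizol and cleaned on RNeasy columns with DNase I.

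The neqc function (limma 3.58.1, R 4.3.3) corrected the background from the detection p-values, added an offset of 16, quantile-normalised and took log2. Probes with a detection p under 0.05 on at least 6 of 12 arrays were kept (16254), and the brightest of the kept probes with 1 symbol stood for its gene (9379 genes). Symbols came from the array annotation, where 34885 probes had 1 symbol, 18 several and 10378 none. The ages were tested 2-sided in limma (lmFit, eBayes). Adjusted p-values follow Benjamini and Hochberg across the 9379 genes, and a gene passed under 0.05. Changes are 50 weeks minus 8 weeks. Permutations of correlations numbered 100000, drawn within each age in Python 3.11.15 with numpy 2.4.6. Array weights were an alternative, as were other background, scaling, filter and probe choices and fits without single arrays. The number of arrays limits the precision. Same-numbered arrays of the 2 ages were not treated as pairs.

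The 7 genes and all lists were chosen with earlier results of these data known. Named genes are the 7 members, the up to 4 genes of each pathway list with the smallest adjusted p, list members past the threshold, and the 3 genes most like each member. Nedd4, Sgk1, Nr3c2, Hsd11b2, Nr3c1, Prss8, Ascl3 and Klk1 are named outside that rule, after their values were seen. So are Nkg7, Cd3e, Eif2s3y, Amy1, Bpifa2, Bhlha15, Lyz1, Adipoq, Krt5, Krt14, Trp63 and markers at or near background. Tested on simulated data of 9379 genes for 50 weeks against 8 weeks, the fit recovered 30% of genes with a log2 change of 0.4, 68% at 0.6, 92% at 1 and 100% at 2, with 4 false among 149 calls. The simulation drew independent normal errors, had no outlying array and changed far fewer genes than passed here. These rates therefore need not hold for the data.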

Additional observations from a re-analysis of the deposited data

Results flagged for a closer look

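Scnn1a on 50 weeks array 6 had a log2 intensity of 8.59, while the other 5 arrays of that age lay between 9.02 and 9.23. The gap to the nearest array was 0.670 of the whole range of the age, above Dixon's critical value for 6 samples. It was the 1 such value among 28 groups examined (the 7 genes and the 7 pathway genes that passed, at each age), where chance gives about 1 in 20. The same array was the highest of its age for Scnn1b, Scnn1g, Cftr, Nedd4l and Clcn2.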

How the results depend on the processing

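Of 147 values of the 7 genes under alternative settings 0 changed sign and 14 changed side of the threshold. The settings that altered only the filter, the probe rule or the block could not change a sign. They returned the main difference by construction, and fits without single arrays reuse most of the arrays. The 147 values are thus not separate tests. With arrays scaled to the same median Scnn1b (-0.26) and Scnn1g (-0.36) did not pass, and the genes called over the whole table were 320 higher and 73 lower. Cftr did not pass with no detection filter (0.60, limma adjusted p = 0.0626) or without both 8 weeks array 2 and 50 weeks array 6 (0.42), and leaving out 1 array at a time gave it changes from 0.50 to 0.73. Nedd4l passed on the authors' scaled values (0.20), and Clcn2 passed with array weights (-0.29) and without both of those arrays (-0.29), with changes from -0.29 to -0.17 when arrays were left out. On the authors' values 347 genes were lower. Array weights gave 1155 higher and 1438 lower genes, and leaving out both of those arrays gave 1136 and 1391. Leaving out 1 array at a time gave 412 to 1047 higher and 380 to 1270 lower genes, with the highest of each without 50 weeks array 6 (1047 and 1270) and the lowest without 50 weeks array 1. The cause of these shifts was not tested.

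The titles number arrays 1 to 6 in both ages. Deviations of same-numbered arrays correlated at 0.10 to 0.30 for numbers 1 to 5 and at -0.01 for number 6, and 3 of 12 arrays correlated best with their own number. The labels give no meaning to the numbers, and they were not taken as pairs. With the replicate number as a block 501 genes were higher and 410 lower, Scnn1b, Scnn1g and Cftr passed (limma adjusted p = 0.0257, 0.0251 and 0.00653), and Wnk1, Atp1b1 and Clcn3 did not (0.0561, 0.0514 and 0.0876).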
